A study of Homo sapiens with 36 samples.

Results

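The 34 genes described here encode the pyruvate carriers of the mitochondrion, the pyruvate dehydrogenase complex with its kinases and phosphatases, the enzymes of the tricarboxylic acid (TCA) cycle, and the enzymes that refill it. They were taken by gene symbol, and each had 1 row among the 21950 genes of the deposited table. The set was chosen with earlier results of these data known. Expression had been measured by RNA sequencing in K562 cells, a human erythroleukemia line that carries the same genotype in all groups as far as the labels say. Cells in DMEM stood in incubators at 21% oxygen (the control level), 5% or 1%, and were collected after 6 h, 24 h, 3 d or 6 d, with a passage at 3 d. Each of these 12 groups had 3 libraries, 36 in all. An effect of oxygen cannot be told apart from one of the incubator. The labels do not say whether the 3 libraries of a group came from separate cultures, so a p-value here reflects spread among libraries that may be technical. In RNA from whole cultures, fewer cells with a transcript and less of it in each cell cannot be told apart.

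Pyruvate made by glycolysis enters the mitochondrion through a carrier built of MPC1 and MPC2. The pyruvate dehydrogenase complex then turns it into acetyl-CoA, which citrate synthase joins to oxaloacetate, and the cycle oxidizes the citrate formed step by step. Kinases of the PDK family switch the complex off by phosphorylation and phosphatases switch it on again. Because intermediates leave the cycle for synthesis, they are replaced from pyruvate, glutamate and aspartate, a set of reactions called anaplerosis. In hypoxia, PDK1 is a known target of hypoxia-inducible factor (HIF), the transcription factor that answers to falling oxygen.

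Levels are given as FPKM, fragments per kilobase of transcript scaled to library size, which sets genes of different length on a common scale. Differences are in log2(FPKM + 1), which understates the change of weakly expressed genes, and a gene is said to have risen or fallen where its limma test passed an adjusted p of 0.05 over the 10625 genes with a mean of at least 1 FPKM. Of the 34 genes, 32 reached that mean. PDK2 and PDK4 did not, and PDK3 did so only through the low-oxygen groups. The tables hold no counts, so read depth and counting error are unknown. A single library was unlike the rest. In replicate 3 of the 3 d group at 1% oxygen, 7220 genes had a value above 0, against 14512 to 19543 in the other 35 libraries. It listed 7 of the 34 genes at 0 (PDK2, PDP1, IDH1, IDH3A, DLST, SUCLA2 and ME2), where no other library listed more than 2. It is called the shallow library below, and results are given with and without it. The 12 erythroleukemia markers were above 0 in each library, with GATA1 between 124 and 308 FPKM, while CD3E, MS4A1 and CD14, markers of other blood cells, did not exceed 1.03 FPKM. EPCAM, an epithelial marker, stood at 31.4 to 139 FPKM and PTPRC, a marker of white blood cells, reached 24.3. The 11 markers of other cell types summed to between 43.6 and 160 FPKM, and this sum moved with oxygen as given below.

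By mean level over all 36 libraries, the malate dehydrogenase MDH2 was highest at a mean of 649 FPKM, followed by MDH1 (304), FH (238), MPC1 (223) and SUCLG1 (193). At the low end stood the kinases PDK4 (0.258), PDK2 (0.433) and PDK3 (1.11) and the phosphatase PDP1 (1.00).

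In 1% oxygen the kinase PDK1 rose, and with it PDK3, the malic enzyme ME1 and the isocitrate dehydrogenase IDH2, while most of the carrier, dehydrogenase and cycle genes fell. Averaged over the 4 times, 22 of the 32 genes tested passed against 21% oxygen, 4 higher and 18 lower, where 31.4% of all genes tested passed (12.4% higher and 19% lower). Their median log2 difference was -0.28, and that of all genes tested was -0.07. Leaving out the shallow library, 24 of the 32 passed (4 higher and 20 lower, against a background of 49%), with medians of -0.19 and 0.00. When each library was rescaled to the same summed FPKM (TPM), 14 of the 32 passed (4 higher and 10 lower), where 25.7% of all genes did, now more of them higher (18.6%) than lower (7.07%). With quantile normalization 18 passed (against 31.7%). In 5% oxygen 18 of the 32 passed, where 24.2% of all genes tested did. The 3 that rose were PDK1, PDK3 and ME1 (background 9.21% higher), and 15 fell (background 15% lower). Under TPM rescaling 6 were higher and 7 lower (against 17.7% of all genes, 12.9% higher and 4.81% lower), the additions above being IDH2, OGDH and GOT1. With quantile normalization 14 passed (against 21.2%). The median was -0.22 for the 32 genes and -0.04 for all genes tested, and without the shallow library 25 passed (against 48.4%). Leaving PDK3 out of these counts, since it entered the test through its low-oxygen values, 21 of 31 genes passed in 1% oxygen (3 higher) and 17 in 5% (2 higher). Both comparisons share the libraries of 21% oxygen, so they are not independent of each other.

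Of the 22 calls in 1% oxygen on average, 8 were lost under TPM rescaling (MPC2, PDHA1, DLD, PDHX, IDH3A, IDH3G, OGDH and GOT1) and 6 with quantile normalization (the same genes but IDH3A and OGDH). Of the 18 calls in 5% oxygen, 8 were lost under TPM (MPC2, PDHB, DLAT, PDHX, CS, SUCLG2, MDH2 and GLUD1) and 5 with quantile normalization (MPC2, PDHB, PDHX, CS and MDH2). TPM rescaling raised the median of all genes from -0.07 to 0.05 in 1% oxygen on average, from -0.04 to 0.08 in 5% on average, from 0.00 to 0.13 in 5% at 6 h and from -0.06 to 0.06 in 5% at 6 d, and lowered it from -0.10 to -0.23 in 5% at 3 d. PDK1, PDK3 and ME1 stayed higher, and MPC1, IDH3B, SUCLG1, FH, MDH1 and GOT2 stayed lower, in both levels with all libraries, without the shallow one and under both other scalings.

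Calls appeared from 24 h on. At 6 h the libraries of 1% oxygen lay above those of 21% for 12 of the 34 genes, PDK1 and FH among them. They lay below for 2, MPC1 and ME2. The share of all genes with no such overlap was not taken, so these counts cannot be read as an early response. At 6 h, 0 of the 32 genes passed in 1% oxygen and 0 in 5%, where the background was also 0% in both. At an unadjusted p under 0.05, limma called 0 of the 32 genes in 1% (background 3.3%) and 2 in 5% (background 2.64%) at that time, and the fits with quantile-normalized or TPM-rescaled values called 0 after adjustment. At 24 h, 11 passed in 1% oxygen (2 higher, 9 lower), against a background of 16.2% (6.56% higher, 9.66% lower). In 5%, 8 passed (1 higher, 7 lower), against 9.38% (2.39% higher, 6.99% lower). At 3 d, 22 passed in 1% oxygen (3 higher, 19 lower), against 53.2% (16.9% higher, 36.3% lower). In 5%, 15 passed (4 higher, 11 lower), against 21.8% (8.25% higher, 13.6% lower). At 6 d, 10 passed in 1% oxygen (3 higher, 7 lower), against 10.9% (5.84% higher, 5.04% lower), and 14 in 5% (3 higher, 11 lower), against 14.8% (7.24% higher, 7.59% lower). Leaving PDK3 out, since it entered the test through its low-oxygen values, the counts in 1% oxygen were 10 (1 higher) at 24 h, 21 (2 higher) at 3 d and 9 (2 higher) at 6 d, of 31. Those in 5% were 8 (1 higher), 14 (3 higher) and 13 (2 higher). The median log2 difference of the 32 genes in 1% oxygen was -0.21 at 24 h, -0.74 at 3 d and -0.19 at 6 d, where that of all genes tested was 0.00, -0.32 and -0.03. Without the shallow library the 3 d median was -0.36 against -0.01 for all genes, and 20, 21 and 19 genes passed at 24 h, 3 d and 6 d (backgrounds 38.6%, 53.7% and 29.8%). In 5% oxygen, 16, 23 and 22 did so (backgrounds 28.2%, 44.9% and 37%). At 6 h, 0 of the 32 passed in either level without it (limma, backgrounds 0.0941% and 0%), and at an unadjusted p under 0.05, 7 did in 1% and 3 in 5% (backgrounds 10.9% and 9.67%).

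The falls at 24 h depended on the scale of the values. Replicate 3 of 21% oxygen at that time had a summed FPKM of 1171415 over all genes, where the other 8 libraries of 24 h had 632398 to 900700. Under TPM rescaling the median of all genes tested moved from 0.00 to 0.39 in 1% oxygen at 24 h and from -0.02 to 0.36 in 5%. On that scale 6 of the 32 genes passed at 24 h in each level, all of them higher, where 22.3% of all genes passed in 1% oxygen (21.5% higher) and 16.2% in 5% (16.1% higher). With quantile normalization 2 passed in 1% oxygen (background 7.81%) and 0 in 5% (background 1.85%). At an unadjusted p under 0.05, 5 of the 32 did in 5%, where 14.3% of all genes did. In 5% oxygen at 6 d, TPM rescaling left 6 genes, 3 higher and 3 lower (background 9.74%, 7.3% higher and 2.44% lower). With replicate 3 of 21% oxygen at 24 h left out, 2 passed in 1% oxygen and 0 in 5% at that time. For this and the other fits below that left out a library, the shallow one aside, the share of all genes was not taken. A change in those counts therefore cannot be told apart from a change over all genes. Leaving out replicate 3 of 1% oxygen at 24 h gave 7, and leaving out replicate 2 or 3 of 5% oxygen gave 1 and 0. The rise of PDK1 in 1% oxygen passed at 24 h with all libraries, without the shallow one, and under TPM rescaling and quantile normalization. At 3 d, 18 genes passed in 1% oxygen in all 4 of these fits, and 14 did in 5%. PDK3 was among them in both levels, and the share of all genes that passed in all 4 was not taken. Fitted with the 2 compared groups alone, where the shallow library is 1 of 6, 8 passed in 1% oxygen at 3 d (background 7.7%). At 6 d the count in 1% oxygen was 5 without replicate 1 of 21% oxygen, 6 without its replicate 2 and 6 without replicate 1 of 1% oxygen. In 5% oxygen at 6 d it was 9 and 8 without replicates 1 and 2 of 21% oxygen, and 9 without replicate 3 of 5% oxygen.

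**Figure D1:**
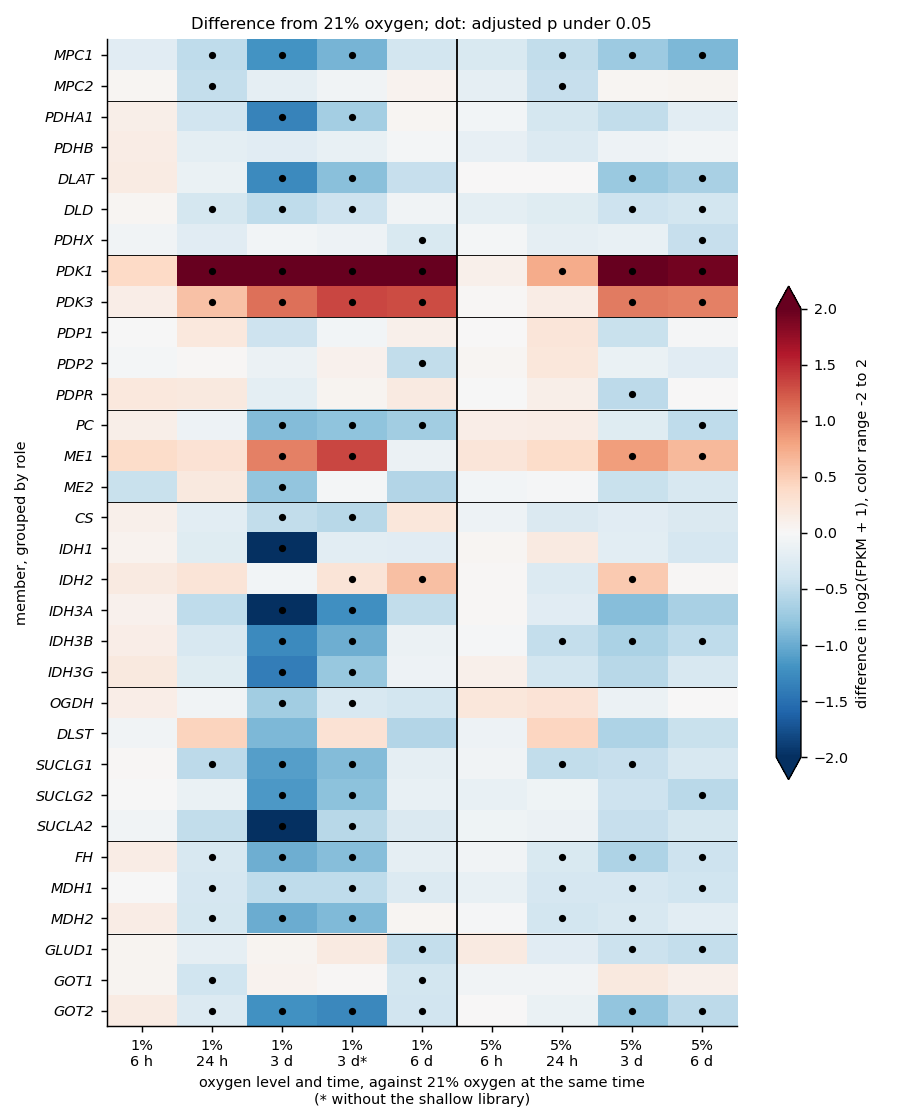
Difference in log2(FPKM + 1) from 21% oxygen at the same time for the 32 genes tested, by role, with a dot where the adjusted p was under 0.05. Columns are the 4 times in 1% oxygen, 3 d repeated without the shallow library, and the 4 times in 5% oxygen. PDK1 and PDK3 are red from 24 h or 3 d on, and most other rows are blue at 3 d. The values are on the FPKM scale. TPM rescaling, which is not drawn, ended 9 of the 11 calls at 24 h in 1% oxygen and 7 of the 8 in 5%, every fall among them.

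Lists of marker RNAs also differed between the groups. A list of 7 long noncoding RNAs, read as a check of RNA quality, summed to 1660 to 1980 FPKM in 1% oxygen at 3 d and 1700 to 1960 in 5%, above the 1300 to 1400 of 21% oxygen. At 6 d those sums were 1360 to 1430, 1370 to 1430 and 1260 to 1330. At 24 h the order was the other way, with 1280 to 1450 and 1260 to 1440 in the low levels and 1560 to 2300 in 21% oxygen. GAS5 weighs most in this sum, with a median of 893 FPKM over all libraries, and SNHG1 (312) and MALAT1 (188) follow. The sum therefore tracks few genes and is a weak check of RNA quality. The 12 erythroleukemia markers summed to 36600 to 43800 FPKM in 1% oxygen at 6 d and 22000 to 23600 in 5%, against 5310 to 5680 in 21%. That sum is mostly globin RNA, since HBZ, HBE1, HBG2 and HBG1 reached 20100, 13800, 5320 and 2730 FPKM and no other gene of the 12 exceeded 885. The 11 markers of other cell types summed to 43.6 to 97.4 FPKM in 1% oxygen at 3 d and 88.9 to 98.2 in 5%, below the 131 to 136 of 21%, and to 104 to 122, 106 to 108 and 156 to 160 at 6 d. Of that list, EPCAM fell in 1% oxygen (log2 -0.35, adjusted p 0.00187) and in 5% (-0.32, adjusted p 0.0043) on average, calls that TPM rescaling ended (-0.19 and -0.18). The lowest EPCAM value, 31.4 FPKM, was the shallow library's, and the lowest elsewhere was 53. COL1A2, a stromal marker at no more than 10.7 FPKM, went the other way in 5% oxygen (limma, 0.27, adjusted p 0.00203). That call held under TPM rescaling (0.39), and in 1% oxygen COL1A2 did not pass (-0.05). CD3E, MS4A1 and CD14 stayed at or below 1.03 FPKM. The part of these shifts in the results was not tested.

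PDK1, the kinase of the family with the highest level in these cells, rose from 24 h on in both low levels. In 21% oxygen PDK1 stood at 3.36, 4.35 and 3.68 FPKM at 6 h, 5.6, 4.45 and 1.91 at 24 h, 5.64, 5.53 and 5.23 at 3 d, and 4.55, 6.59 and 6.62 at 6 d. PDK1 at 5% oxygen measured 4.1, 4.82 and 3.55 FPKM at 6 h, 6.89, 6.96 and 6.87 at 24 h, 23.7, 25.3 and 25.7 at 3 d, and 23.6, 26.5 and 25.4 at 6 d. The 1% libraries held PDK1 at 5.56, 4.94 and 5.33 FPKM at 6 h, 19.3, 22.2 and 22.2 at 24 h, 41.2, 41.9 and 25.8 at 3 d, and 57.5, 59 and 70.2 at 6 d. From 24 h on, the libraries of 1% and of 5% oxygen lay above those of 21% at the same time, and the shallow library held the lowest of the 3 values of 1% oxygen at 3 d. At 6 h the libraries of 1% also lay above those of 21%, and those of 5% overlapped them. In 1% oxygen the log2 difference from 21% was 0.39 at 6 h, 2.23 at 24 h, 2.50 at 3 d and 3.20 at 6 d, and the last 3 passed. In 5% oxygen the differences were 0.10, 0.75, 2.00 and 1.93, of which the last 3 passed. The rise in 5% at 24 h did not pass with quantile normalization (adjusted p 0.0538), in a fit of the compared groups alone, or without replicate 3 of 21% oxygen or replicate 2 or 3 of 5%. Averaged over time, PDK1 rose by 2.08 in 1% oxygen (95% interval 1.88 to 2.29, 4.23-fold in FPKM + 1, adjusted p 2.41e-15) and by 1.20 in 5% (0.99 to 1.40, adjusted p 4.43e-10). The size of the difference varied with time in both levels (moderated F test, adjusted p 8.52e-08 in 1% and 1.29e-05 in 5%).

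PDK3, a kinase of the same family, was weakly expressed and rose at later times. In 21% oxygen PDK3 stood at 0.521, 0.0991 and 0.277 FPKM at 6 h, 0.423, 0.553 and 0.342 at 24 h, 0.546, 0.445 and 0.46 at 3 d, and 0.286, 0.781 and 0.426 at 6 d. PDK3 at 5% oxygen measured 0.352, 0.606 and 0.0488 FPKM at 6 h, 0.477, 0.649 and 0.683 at 24 h, 2.04, 2.34 and 1.8 at 3 d, and 2.46, 1.47 and 2.11 at 6 d. The 1% libraries held PDK3 at 0.373, 0.477 and 0.395 FPKM at 6 h, 1.07, 1.31 and 1.09 at 24 h, 2.37, 3.17 and 1.29 at 3 d, and 2.61, 2.98 and 2.48 at 6 d. The 3 libraries of 1% oxygen lay above those of 21% at 24 h, 3 d and 6 d, the shallow one included, and those of 5% did at 3 d and 6 d. The average log2 difference was 0.78 in 1% oxygen (0.60 to 0.97, adjusted p 1.17e-07) and 0.56 in 5% (0.38 to 0.74, adjusted p 2.47e-05). It passed in 1% oxygen at 24 h, 3 d and 6 d (0.58, 1.10 and 1.31), and in 5% at 3 d and 6 d (1.04 and 1.01). The 24 h call was lost with quantile normalization (adjusted p 0.183). Because PDK3 reached the mean of 1 FPKM through the groups in which it is high, these values describe it and add no support to the counts. In the fit with no filter, over 21455 genes, its averages were 0.78 (adjusted p 2.1e-07) and 0.56 (adjusted p 4.44e-05).

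The other kinases had low levels. PDK2 in 21% oxygen stood at 0.928, 0.866 and 0.538 FPKM at 6 h, 0.49, 0.137 and 0.737 at 24 h, 0.347, 0.207 and 0.344 at 3 d, and 0.406, 0 and 0.369 at 6 d. PDK2 at 5% oxygen measured 0.343, 0.952 and 0.137 FPKM at 6 h, 0.0345, 0.319 and 0 at 24 h, 0.449, 0.414 and 0.198 at 3 d, and 0.498, 0.171 and 0.595 at 6 d. The 1% libraries held PDK2 at 0.691, 0.353 and 0.547 FPKM at 6 h, 0.445, 0.341 and 0.726 at 24 h, 0.488, 0.339 and 0 at 3 d, and 0.481, 0.647 and 1.07 at 6 d. Each low level overlapped 21% oxygen at 6 h, 24 h and 3 d, and at 6 d the libraries of 1% but not of 5% lay above those of 21%. PDK4, a kinase known to respond to fasting and fatty acids, was at or near 0 in most libraries. PDK4 at 21% oxygen measured 0.155, 0 and 0 FPKM at 6 h, 0.052, 0 and 0 at 24 h, 0, 0 and 0.102 at 3 d, and 0.211, 0.0587 and 0.0595 at 6 d. Values of PDK4 at 5% oxygen were 0.0635, 0.206 and 0.0297 FPKM at 6 h, 0.0223, 0 and 0 at 24 h, 0.0444, 0.107 and 0.165 at 3 d, and 0.267, 0.214 and 0.788 at 6 d. PDK4 at 1% oxygen measured 0, 0 and 0 FPKM at 6 h, 0, 0.249 and 0.11 at 24 h, 1.02, 0.393 and 4.6 at 3 d, and 0.2, 0.151 and 0.0415 at 6 d. Its highest value, 4.60 FPKM, was in the shallow library, and the other 2 libraries of that group, at 1.02 and 0.393, also lay above those of 21% at 3 d. Neither PDK2 nor PDK4 was tested.

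**Figure D2:**
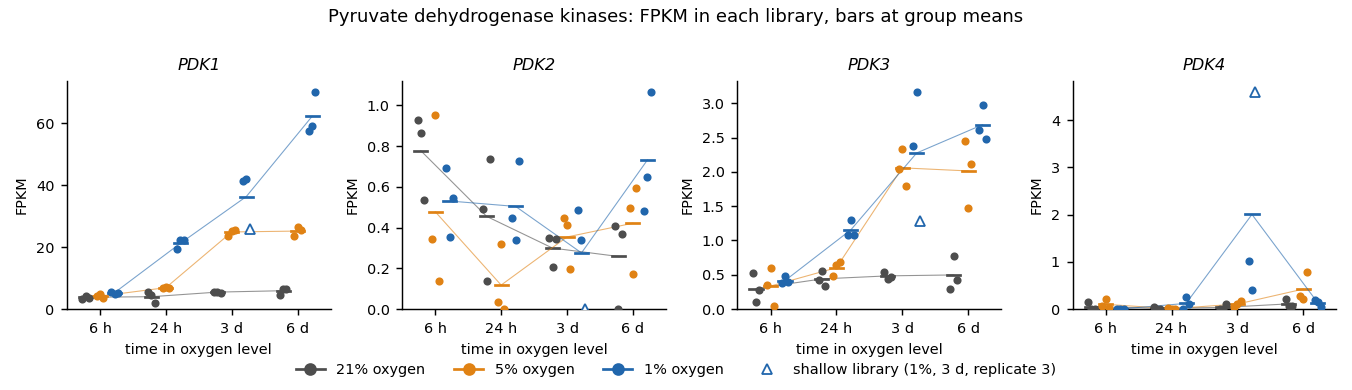
FPKM of the 4 pyruvate dehydrogenase kinases in each library by time, with bars at group means joined by lines (the mean of 1% oxygen at 3 d includes the shallow library, drawn as a triangle). The PDK1 points of 1% oxygen climb to 57.5 to 70.2 FPKM at 6 d, and the panels of PDK2, PDK3 and PDK4 have axes that end below 5 FPKM.

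PDK1 made up most of the kinase signal in FPKM, and more of it than in 21% oxygen in both low levels at 24 h and in 1% at 6 d. Its share of the summed FPKM of the 4 kinases was 63.9% to 89.4% over the libraries of 21% oxygen and 94.0% to 95.1% in 1% oxygen at 6 d. At 6 h, 24 h and 3 d it was 84.0% to 85.6%, 92.0% to 92.7% and 81.4% to 91.5% in 1% oxygen, the lowest at 3 d being the shallow library's. In 5% oxygen it was 73.2% to 94.3% at 6 h, 87.8% to 92.8% at 24 h, 89.9% to 92.2% at 3 d and 87.9% to 93.4% at 6 d. The ratio of PDK1 to the other 3 kinases, with 0.1 FPKM added on each side, was 2.03-fold higher in 1% oxygen averaged over time (log2 1.02, exact permutation test within times, two-sided, adjusted p 0.00103 over 18 tests of 9 ratios). In 5% oxygen it was higher by 0.77 in log2 (exact permutation test, adjusted p 0.00486). The other 3 kinases have low levels, and in 5% the ratio differed by 0.70 at 6 h, where PDK1 itself did not pass, and by 0.65 at 3 d.

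The windows of 250 bases before the transcription start are shown for these kinases because their levels were higher in both low-oxygen conditions at 3 d and 6 d, PDK1 being a known HIF target. HIF binds DNA at the core ACGTG or GCGTG. Both sequences were searched on both strands, and matches are in capitals (CACGT and CACGC are the same sites read from the other strand). The windows are RefSeq sequence of GRCh38.p14 on the gene's strand, PDK1 at chr2:172555840-172556089 (forward strand) and PDK3 at chrX:24465036-24465285 (forward strand).
PDK1: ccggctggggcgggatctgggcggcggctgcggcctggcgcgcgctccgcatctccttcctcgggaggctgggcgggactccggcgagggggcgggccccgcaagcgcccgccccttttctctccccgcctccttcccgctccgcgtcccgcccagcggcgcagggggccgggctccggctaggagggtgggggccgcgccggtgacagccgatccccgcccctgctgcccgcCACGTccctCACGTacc
PDK3: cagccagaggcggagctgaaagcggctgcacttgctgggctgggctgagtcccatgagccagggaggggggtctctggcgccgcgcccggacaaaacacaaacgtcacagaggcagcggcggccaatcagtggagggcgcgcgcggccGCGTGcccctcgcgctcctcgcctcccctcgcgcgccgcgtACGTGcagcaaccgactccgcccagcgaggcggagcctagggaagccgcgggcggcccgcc
The 2 matches of PDK1 begin 17 and 8 bases before this start, and those of PDK3 begin 102 and 61 bases before. RefSeq lists another start for PDK1, whose window had 0 matches, and the window shown was chosen for its matches. Such matches are common, since 43.2% of 35116 windows of the same length before RefSeq starts held at least 1. Of the 44 windows of the genes described here 25 did (56.8%), and they belonged to 24 of the 32 genes with a window. ACGTG alone was in 18.5% of all windows and in 12 of the 44. A match is a run of letters and was not tested for binding.

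The phosphatases that reactivate pyruvate dehydrogenase did not pass as higher against 21% oxygen on average or at any time on the FPKM scale (under TPM rescaling PDPR did in 1% at 24 h and PDP2 in 5% at 24 h). PDP1, whose protein is activated by calcium, had average log2 differences of -0.03 in 1% oxygen (-0.25 to 0.19, adjusted p 0.875) and -0.05 in 5% (-0.27 to 0.17, adjusted p 0.793). PDP2 fell in 1% oxygen at 6 d, from 4.97, 5.12 and 5.58 FPKM in 21% to 3.4, 4.17 and 2.74 (log2 -0.50, adjusted p 0.0229; 0.0594 under TPM rescaling), and its average did not pass (-0.16, adjusted p 0.096). PDPR, a regulatory subunit of the PDP1 phosphatase that has near-identical copies in the genome, fell in 5% oxygen at 3 d (log2 -0.52, adjusted p 0.0375), and reads may have been split among those copies. The ratio of the 4 kinases to PDP1 and PDP2 together was taken in each library. It was 0.839 to 1.57 over the libraries of 21% oxygen, 12.4 to 17.4 in 1% oxygen at 6 d and 4.99 to 5.53 in 5% at 6 d. Averaged over time it was 4.93-fold higher in 1% oxygen (log2 2.3, exact permutation test, adjusted p 0.000225), and the raw p of 1.25e-05 is the smallest that the 160000 assignments allow. In 5% oxygen it was 2.40-fold higher (log2 1.26, exact permutation test, adjusted p 0.00251).

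Of the pyruvate carrier, MPC1 fell in both levels, and by more than MPC2 in the ratio between them. In 21% oxygen MPC1 stood at 291, 268 and 277 FPKM at 6 h, 298, 299.5 and 369 at 24 h, 254, 269 and 278 at 3 d, and 268, 259.8 and 258 at 6 d. The 5% libraries held MPC1 at 237, 202 and 239.7 FPKM at 6 h, 249, 214 and 218 at 24 h, 161, 161 and 161 at 3 d, and 146, 142 and 130.5 at 6 d. MPC1 at 1% oxygen measured 232, 249 and 236 FPKM at 6 h, 234, 244 and 202 at 24 h, 142, 136 and 80.7 at 3 d, and 179.7, 210.4 and 220.5 at 6 d. At each time the highest library of 1% and of 5% oxygen lay below the lowest of 21%, and the shallow library held the lowest value of all 36. The average log2 difference was -0.57 in 1% oxygen (-0.71 to -0.43, adjusted p 1.71e-07, -0.51 without the shallow library) and -0.61 in 5% (-0.74 to -0.47, adjusted p 6.95e-08). In 1% oxygen the difference was -1.19 at 3 d and -0.37 at 6 d, where it did not pass (adjusted p 0.0808). In 5% it was -0.72 at 3 d and -0.91 at 6 d, and both passed.

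MPC2, the partner of MPC1, ranged from 76.6 to 142 FPKM over all libraries. Its averages were -0.14 in 1% oxygen (adjusted p 0.042) and -0.14 in 5% (adjusted p 0.048), so both passed with all libraries. The one in 1% did not pass without the shallow library, and both turned above 0 and did not pass under TPM rescaling (0.02 and 0.01) and quantile normalization (0.01 and 0.01). The ratio of MPC1 to MPC2 within a library does not depend on its scale. It was 2.35 to 2.76 over the libraries of 21% oxygen, 1.02 to 1.52 in 1% oxygen at 3 d and 1.65 to 1.99 at 6 d, and 1.44 to 1.56 and 1.19 to 1.38 in 5% oxygen at those times. The mean log2 difference in this ratio was -0.44 in 1% oxygen (exact permutation test, adjusted p 0.000525) and -0.47 in 5% (exact permutation test, adjusted p 0.00103).

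Among the subunits of pyruvate dehydrogenase, the core enzyme DLAT and the shared subunit DLD fell in both levels on the FPKM scale. DLAT, the acetyltransferase, stood at 51.6, 55.8 and 55.7 FPKM in 21% oxygen at 3 d, 30.8, 30.1 and 36 in 5% and 30, 29.8 and 11.7 in 1%, the last value being the shallow library's. At 6 d DLAT was at 55.3 to 58.6, 34.9 to 37.8 and 40.3 to 42.7 FPKM in 21%, 5% and 1% oxygen. Its average log2 difference was -0.42 in 1% oxygen (adjusted p 0.00153, -0.32 without the shallow library) and -0.35 in 5% (adjusted p 0.0101), the second of which did not pass under TPM rescaling (-0.21, adjusted p 0.167). DLD, the dihydrolipoamide dehydrogenase that also serves the alpha-ketoglutarate complex, had averages of -0.22 (adjusted p 0.000304) and -0.30 (adjusted p 6.37e-06). The one in 1% oxygen did not pass under TPM rescaling (-0.06, adjusted p 0.394) or quantile normalization (-0.05, adjusted p 0.226). At 3 d DLD stood at 145 to 154 FPKM in 21% oxygen, 104 to 124 in 5% and 90.4 to 115 in 1%.

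The decarboxylase subunits differed from each other. PDHA1, which carries the sites that the kinases phosphorylate, fell in 1% oxygen on average (log2 -0.39, adjusted p 0.0275, -0.23 without the shallow library; -0.24 under TPM rescaling and -0.28 with quantile normalization, neither passing). At 3 d it stood at 102, 102 and 106 FPKM in 21% oxygen, 74.2, 72.5 and 71.3 in 5% and 61.5, 67 and 15.2 in 1%, where the shallow library lay far below the other 2. At 6 d PDHA1 was at 85.5 to 91.9 FPKM in 21% and 86.9 to 94.4 in 1%, and these ranges overlapped. In 5% oxygen its average of -0.28 did not pass with all libraries (adjusted p 0.145) but did when the shallow one was left out. PDHB, the partner of PDHA1, had averages of -0.08 in 1% oxygen (adjusted p 0.285; above 0 and not passing under TPM rescaling and quantile normalization) and -0.15 in 5% (adjusted p 0.0479; -0.01 and -0.00 and not passing under the same scalings). PDHX, which anchors DLD to the core, fell by 0.16 and 0.20 on the log2 scale in 1% and 5% oxygen (adjusted p 0.0105 and 0.00165). TPM rescaling (-0.01 and -0.07) and quantile normalization (-0.10 and -0.14) ended both calls.

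Citrate synthase and the isocitrate dehydrogenases did not move together. CS, which starts the cycle, fell in 1% oxygen at 3 d, from 124 to 135 FPKM in 21% to 84 to 98.3 (log2 -0.50, adjusted p 0.000239), a call that quantile normalization ended (-0.09, adjusted p 0.464). At 6 d it stood at 131 to 145 in 1% against 112 to 121 in 21% oxygen, a difference of 0.23 that did not pass (adjusted p 0.185). In 5% oxygen the average of CS fell by 0.23 on the log2 scale (adjusted p 0.00113), and it was -0.09 under TPM rescaling and -0.06 with quantile normalization, neither passing.

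IDH3A, the catalytic subunit of the NAD-dependent enzyme of the cycle, fell in 1% oxygen. In 21% oxygen IDH3A stood at 56.6, 58 and 60.2 FPKM at 6 h, 68.4, 63.3 and 73 at 24 h, 61.9, 63.2 and 63 at 3 d, and 60.8, 58.1 and 62.5 at 6 d. Values of IDH3A at 5% oxygen were 60.3, 56.3 and 61.7 FPKM at 6 h, 57.3, 63.6 and 54.1 at 24 h, 37, 30.7 and 36 at 3 d, and 35.5, 40.7 and 38.7 at 6 d. IDH3A at 1% oxygen measured 56.7, 58.4 and 72.6 FPKM at 6 h, 49.5, 51.8 and 41.9 at 24 h, 26.1, 26.5 and 0 at 3 d, and 38.2, 44.6 and 46.1 at 6 d. The libraries of both low levels lay below those of 21% at 3 d and 6 d, and the shallow library listed IDH3A at 0. The average log2 difference in 1% oxygen was -0.93 (-1.57 to -0.29, adjusted p 0.0241), and -0.53 (-0.63 to -0.43) without the shallow library. Under TPM rescaling with all libraries it did not pass (-0.85, adjusted p 0.07). In 5% oxygen it was -0.42, with an interval of -1.06 to 0.22 that includes 0 when the shallow library enters the pooled spread (adjusted p 0.383) and of -0.52 to -0.33 when it does not, and then passed.

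The partner subunits IDH3B and IDH3G also fell in 1% oxygen at 3 d. IDH3B stood at 182, 174 and 172 FPKM in 21% oxygen at 3 d, 110.4, 103 and 125 in 5% and 80.2, 98.8 and 47.2 in 1%. It fell on average in 1% (log2 -0.39, adjusted p 0.000197) and 5% oxygen (-0.41, adjusted p 0.000133). At 6 d IDH3B was at 132 to 149 FPKM in 1% oxygen, overlapping 21% (146 to 154), and at 105 to 106 in 5%. IDH3G, a regulatory subunit, fell in 1% oxygen (log2 -0.38, adjusted p 0.0246, -0.23 without the shallow library; -0.23 under TPM rescaling and -0.28 with quantile normalization, neither passing). Its average in 5% was -0.29 (adjusted p 0.116), which passed when that library was left out.

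Of the NADP-dependent enzymes, IDH2 rose in 1% oxygen and IDH1 did not. IDH1 acts in the cytosol and IDH2 in the mitochondrion. In 21% oxygen IDH1 stood at 44.6, 39.8 and 37.6 FPKM at 6 h, 42.7, 41.9 and 45.4 at 24 h, 66.9, 73.5 and 71.2 at 3 d, and 65, 54.5 and 64.7 at 6 d. The 5% libraries held IDH1 at 40.7, 43.2 and 40.8 FPKM at 6 h, 49.7, 51.4 and 46.7 at 24 h, 55.5, 60.6 and 67.3 at 3 d, and 52, 47.2 and 46.4 at 6 d. IDH1 at 1% oxygen measured 42.6, 40 and 46.2 FPKM at 6 h, 36, 38 and 35.9 at 24 h, 60.3, 60.9 and 0 at 3 d, and 46, 52 and 58.5 at 6 d. In 21% oxygen IDH1 was higher at 3 d and 6 d than at 6 h and 24 h, with no overlap, and at 24 h and 3 d the libraries of 1% oxygen lay below those of 21%. The average of IDH1 in 1% oxygen was -0.65 with an interval of -1.44 to 0.15 (adjusted p 0.209), and -0.15 with an interval of -0.24 to -0.06 without the shallow library, where it passed. IDH2 rose in 1% oxygen on average (log2 0.24, adjusted p 0.0187, 0.32 without the shallow library). At 6 d IDH2 stood at 60.1, 60.9 and 75 FPKM in 1%, above the 43.1, 48 and 39.5 of 5% and the 41.7, 42.6 and 43.3 of 21% (difference from 21% 0.60, adjusted p 0.0109). In 5% oxygen IDH2 rose at 3 d, to 65.2, 76.1 and 77.8 FPKM from 48.8, 50.9 and 52.3 (log2 0.52, adjusted p 0.0168; 0.37, not passing, under TPM rescaling).

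Within libraries, IDH1 was 1.14 to 1.56 times IDH2 in 21% oxygen. In 1% oxygen the ratio was 1.14 to 1.35 at 6 h, 0.818 to 0.878 at 24 h, 0.934 and 1.07 at 3 d without the shallow library, and 0.766 to 0.855 at 6 d. The mean log2 difference in this ratio was -1.17 with all libraries (exact permutation test, adjusted p 0.00045) and -0.48 without the shallow library, where IDH1 is at 0 (exact permutation test, adjusted p 0.000394). In 5% oxygen it was -0.16 (exact permutation test, adjusted p 0.206), with 0.46 at 24 h and -0.73 at 3 d.

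**Figure D3:**
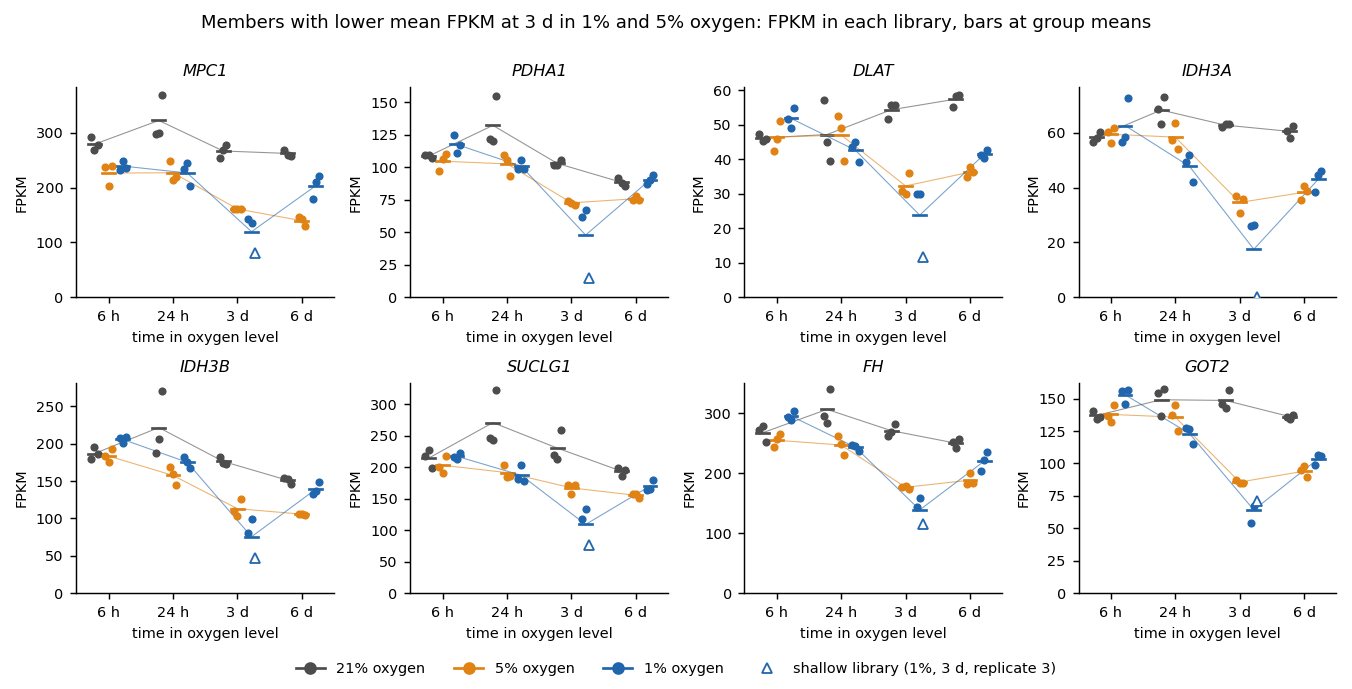
FPKM in each library by time for 8 genes whose means at 3 d were lower in 1% and in 5% oxygen than in 21%, with bars at group means joined by lines (shallow library included and drawn as a triangle). The 1% libraries of MPC1, FH and GOT2 lie at their lowest at 3 d and higher at 6 d.

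**Figure D4:**
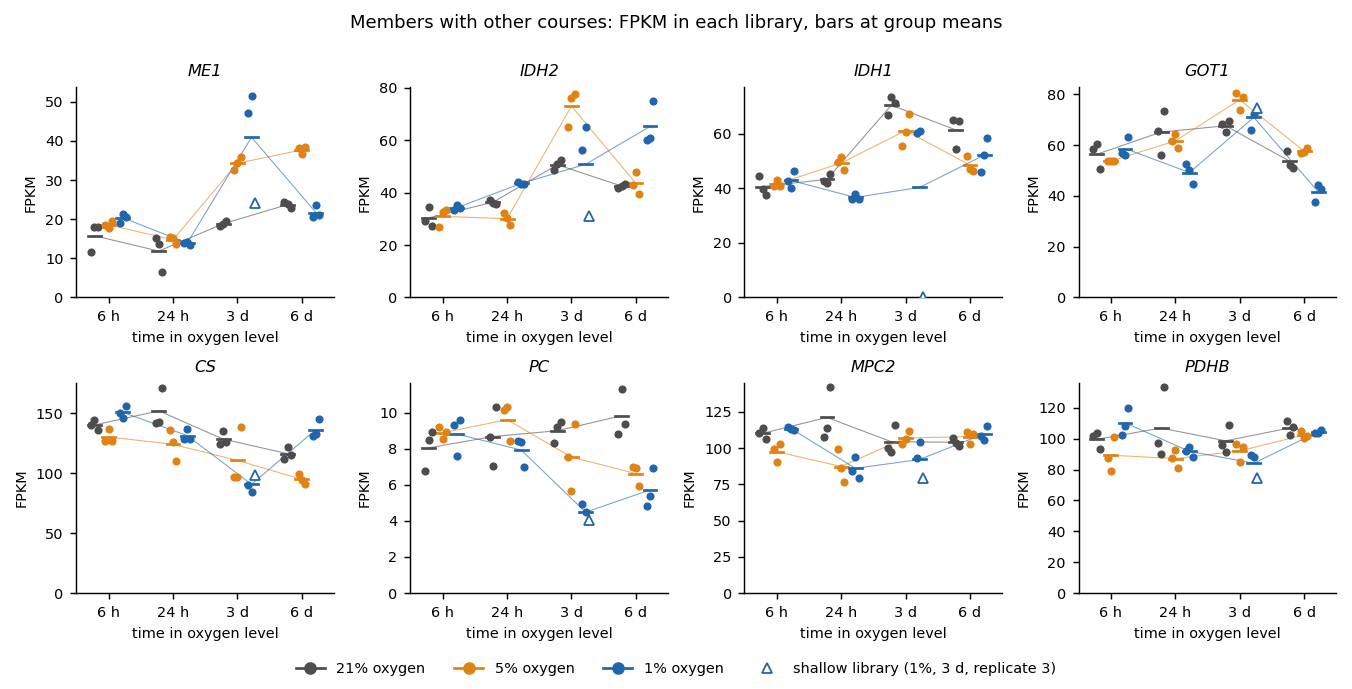
FPKM in each library by time for 8 genes with other courses, with bars at group means joined by lines (shallow library included and drawn as a triangle). ME1 at 3 d stands at 47.0 and 51.5 FPKM in 2 libraries of 1% oxygen and 24.2 in the shallow one, and IDH1 is listed at 0 in the shallow library.

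The alpha-ketoglutarate dehydrogenase complex showed no common course. OGDH, its decarboxylase, fell in 1% oxygen on average (log2 -0.25, adjusted p 0.028, -0.15 without the shallow library; -0.10, not passing, under TPM rescaling) and stood at 18.7 to 23.8 FPKM in 1% oxygen at 6 d against 26.3 to 28.4 in 21%. In 5% oxygen its average was 0.10 (-0.08 to 0.28, adjusted p 0.481; 0.24, passing, under TPM rescaling). DLST, the succinyltransferase core, had an average of -0.28 in 1% oxygen with an interval of -0.78 to 0.22, and of 0.02 without the shallow library, in which it is listed at 0.

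SUCLG1, SUCLG2 and SUCLA2, the subunits of succinyl-CoA ligase, fell in 1% oxygen at 3 d. The enzyme pairs SUCLG1 with either SUCLG2, in the form that makes GTP, or SUCLA2, in the form that makes ATP. In 21% oxygen SUCLG1 stood at 218, 227 and 199 FPKM at 6 h, 247, 244 and 322 at 24 h, 219, 213 and 259 at 3 d, and 199, 186 and 196 at 6 d. Values of SUCLG1 at 5% oxygen were 200.4, 191 and 218 FPKM at 6 h, 204, 184 and 186 at 24 h, 171, 158 and 173 at 3 d, and 157, 158 and 151 at 6 d. SUCLG1 at 1% oxygen measured 216, 212 and 223 FPKM at 6 h, 181, 203 and 178 at 24 h, 118, 134 and 75.7 at 3 d, and 164, 166 and 180.3 at 6 d. The libraries of 1% oxygen lay below those of 21% at 24 h, 3 d and 6 d. SUCLG1 fell by 0.45 on the log2 scale in 1% oxygen on average (-0.58 to -0.31, adjusted p 4.94e-06) and by 0.33 in 5% (-0.47 to -0.20, adjusted p 0.000277).

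For SUCLA2 the call depended on the shallow library. In 21% oxygen SUCLA2 stood at 47.3, 44.2 and 47.8 FPKM at 6 h, 53, 50.5 and 53.3 at 24 h, 49.7, 50 and 46.2 at 3 d, and 47.3, 50.3 and 54.5 at 6 d. The 5% libraries held SUCLA2 at 50.3, 36.6 and 45.2 FPKM at 6 h, 51.9, 51.2 and 42.4 at 24 h, 33.1, 34.2 and 38.3 at 3 d, and 39.6, 43 and 35.6 at 6 d. SUCLA2 at 1% oxygen measured 41.9, 42.3 and 48.8 FPKM at 6 h, 39.9, 41.6 and 30.5 at 24 h, 31.2, 34.5 and 0 at 3 d, and 39, 44.7 and 40 at 6 d. Apart from the 0 of the shallow library, the libraries of 1% and 5% oxygen at 3 d and 6 d lay below those of 21%. The average in 1% oxygen was -0.77 (adjusted p 0.0785), which did not pass. It was -0.35 (-0.46 to -0.23) and passed without that library. SUCLG2 fell by 0.36 in 1% oxygen and by 0.30 in 5% on the log2 scale (adjusted p 0.00102 and 0.00668), and the one in 5% did not pass under TPM rescaling (-0.16, adjusted p 0.164). The ratio of SUCLG2 to SUCLA2 had a mean log2 difference of 0.07 in 1% oxygen without the shallow library (exact permutation test, adjusted p 0.40), and 0.68 with it (exact permutation test, adjusted p 0.17).

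FH, which hydrates fumarate to malate, fell in both levels. In 21% oxygen FH stood at 272, 279 and 251 FPKM at 6 h, 295, 284 and 339 at 24 h, 262, 268 and 282 at 3 d, and 252, 241 and 257 at 6 d. Values of FH at 5% oxygen were 243, 257 and 265 FPKM at 6 h, 262, 248 and 229.7 at 24 h, 177, 178 and 174 at 3 d, and 182, 199.5 and 183 at 6 d. FH at 1% oxygen measured 294, 288 and 304 FPKM at 6 h, 247, 245 and 237 at 24 h, 143, 158 and 115 at 3 d, and 203, 221 and 235 at 6 d. At 6 h the libraries of 1% oxygen lay above those of 21%, and at 24 h, 3 d and 6 d they lay below. The average log2 difference was -0.34 in 1% oxygen (-0.42 to -0.25, adjusted p 6.48e-07) and -0.35 in 5% (-0.44 to -0.26, adjusted p 3.91e-07). In 1% oxygen it was 0.14 at 6 h (not passing), -0.97 at 3 d and -0.19 at 6 d (not passing), and it varied with time (F test, adjusted p 4.11e-07).

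MDH2, the mitochondrial malate dehydrogenase that closes the cycle, had its lowest values in 1% oxygen at 3 d. In 21% oxygen MDH2 stood at 666, 735 and 636 FPKM at 6 h, 744, 745 and 1007 at 24 h, 748, 731 and 812 at 3 d, and 636, 634 and 612 at 6 d. The 5% libraries held MDH2 at 606, 705 and 703 FPKM at 6 h, 682, 649 and 588 at 24 h, 618, 592 and 624 at 3 d, and 555, 542 and 534 at 6 d. MDH2 at 1% oxygen measured 743, 762 and 752 FPKM at 6 h, 640.2, 655 and 636 at 24 h, 396, 430.2 and 329 at 3 d, and 634, 625 and 670.2 at 6 d. At 3 d the libraries of 1% oxygen lay below those of 5%, which lay below those of 21%, and at 6 d those of 1% and 21% overlapped. In 1% oxygen MDH2 fell by 0.99 on the log2 scale at 3 d (adjusted p 2.27e-09, -0.88 when the shallow library is left out), and at 6 d the difference was 0.04 (adjusted p 0.922). The averages were -0.29 in 1% oxygen (adjusted p 2.67e-05) and -0.23 in 5% (adjusted p 0.000597; -0.08 under TPM rescaling and -0.06 with quantile normalization, neither passing). MDH1, the cytosolic enzyme, fell by 0.28 and 0.31 on the log2 scale on average (adjusted p 1.05e-05 and 3.49e-06). At 3 d MDH1 was at 324 to 344 FPKM in 21% oxygen, 261 to 266 in 5% and 226 to 240.5 in 1%, where the shallow library stood between the other 2.

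Of the enzymes that feed or drain the cycle at malate and oxaloacetate, PC fell in 1% oxygen and ME1 rose. PC, which makes oxaloacetate from pyruvate, stood at 8.32, 9.17 and 9.49 FPKM in 21% oxygen at 3 d, 7.56, 5.66 and 9.38 in 5% and 4.91, 4.49 and 4.03 in 1%. At 6 d it was at 8.79 to 11.3, 5.96 to 6.98 and 4.83 to 6.91 FPKM. Its average fell by 0.39 on the log2 scale in 1% oxygen (-0.55 to -0.23, adjusted p 0.000304), and that in 5% was -0.12 (-0.28 to 0.04, adjusted p 0.307).

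ME1, the cytosolic malic enzyme that makes pyruvate and NADPH, rose at 3 d in both levels. In 21% oxygen ME1 stood at 11.5, 17.9 and 17.9 FPKM at 6 h, 15.2, 13.8 and 6.57 at 24 h, 18.3, 18.8 and 19.4 at 3 d, and 24.5, 23.8 and 22.8 at 6 d. Values of ME1 at 5% oxygen were 18.5, 17.6 and 19.5 FPKM at 6 h, 15.3, 15.1 and 13.8 at 24 h, 32.5, 34.4 and 36 at 3 d, and 38.2, 36.5 and 38.3 at 6 d. ME1 at 1% oxygen measured 19.1, 21.4 and 20.6 FPKM at 6 h, 13.9, 14.2 and 13.5 at 24 h, 47, 51.5 and 24.2 at 3 d, and 20.5, 23.5 and 21 at 6 d. In 5% oxygen the rise was still there at 6 d, while the libraries of 1% oxygen at 6 d overlapped those of 21%. The average log2 difference was 0.39 in 1% oxygen (0.17 to 0.61, adjusted p 0.00638) and 0.52 in 5% (0.30 to 0.74, adjusted p 0.000469). In 1% oxygen it was 1.01 at 3 d (adjusted p 0.000327) and -0.12 at 6 d (adjusted p 0.848), and in 5% it was 0.83 and 0.65, both passing. ME1 also varied over time in 21% oxygen, where replicate 3 at 24 h held the lowest value.

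ME2, the mitochondrial malic enzyme, had averages of -0.40 in 1% oxygen (-0.74 to -0.07, adjusted p 0.0606) and -0.22 in 5% (adjusted p 0.392), and passed in both without the shallow library (-0.22 and -0.22). The ratio of ME1 to ME2 was 1.62 to 5.53 over the libraries of 21% oxygen, and 12.2 and 13.9 in 1% oxygen at 3 d without the shallow library, in which ME2 is at 0. In 5% oxygen it was 9.78 to 16.2 at 3 d. Its mean log2 difference was 1.11 in 1% oxygen (exact permutation test, adjusted p 0.00321; 0.76 without the shallow library) and 0.82 in 5% (exact permutation test, adjusted p 0.00199).

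GOT2 and GOT1, the mitochondrial and cytosolic aspartate aminotransferases, link the cycle to aspartate. In 21% oxygen GOT2 stood at 141, 135 and 136 FPKM at 6 h, 154, 136 and 157 at 24 h, 146, 143 and 157 at 3 d, and 136, 134 and 138 at 6 d. The 5% libraries held GOT2 at 137, 132 and 145 FPKM at 6 h, 137, 145 and 125 at 24 h, 87.3, 84.9 and 84.7 at 3 d, and 94.8, 97.9 and 89.5 at 6 d. GOT2 at 1% oxygen measured 156, 146 and 157 FPKM at 6 h, 127, 127 and 115 at 24 h, 54.3, 66.9 and 71.3 at 3 d, and 99.1, 107 and 105 at 6 d. The fall at 3 d did not rest on the shallow library, whose value was the highest of the 3 of 1% oxygen. GOT2 fell by 0.43 in 1% oxygen on average (-0.51 to -0.35, adjusted p 2.49e-09) and by 0.36 in 5% (-0.44 to -0.28, adjusted p 6.39e-08). The log2 difference in 1% oxygen was 0.16 at 6 h, -0.27 at 24 h, -1.21 at 3 d and -0.39 at 6 d, and its variation with time had the smallest adjusted p of the 32 genes (3.75e-09, F test). The 24 h value is on the FPKM scale and was above 0 under TPM rescaling (0.19).

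GOT1 fell in 1% oxygen by 0.16 on average (adjusted p 0.00832), a call that TPM rescaling (-0.00) and quantile normalization (-0.04) ended. It stood at 51.1 to 57.9 FPKM in 21% oxygen at 6 d, 56.9 to 58.9 in 5% and 37.5 to 44.5 in 1%, where it lay below both other levels. Its average in 5% was 0.04 (-0.05 to 0.13, adjusted p 0.572). The ratio of GOT1 to GOT2 at 3 d was 1.05 to 1.22 in 1% oxygen, 0.87 to 0.934 in 5% and 0.444 to 0.468 in 21%, with no overlap. Averaged over time its log2 difference was 0.41 in 5% oxygen (exact permutation test, adjusted p 0.00486) and 0.27 in 1% (exact permutation test, adjusted p 0.139). GLUD1, which turns glutamate into alpha-ketoglutarate and has close copies in the genome, stood at 3.59 to 8.13 FPKM. GLUD1 fell on average in 5% oxygen (log2 -0.24, adjusted p 0.014). At 6 d it fell in 1% oxygen (log2 -0.48, adjusted p 0.0278) and in 5% (-0.48, adjusted p 0.0211). TPM rescaling ended these 3 calls of GLUD1 (adjusted p 0.454 for the average, 0.0954 and 0.247 at 6 d).

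The windows of ME1 and GOT2 are shown in the same way as those of the kinases, as a gene that rose and a gene that fell at 3 d. They lie at chr6:83431052-83431301 and chr16:58734317-58734566 of GRCh38.p14 (RefSeq), both on the reverse strand and written in the direction of the gene, with matches to ACGTG or GCGTG on either strand in capitals.
ME1: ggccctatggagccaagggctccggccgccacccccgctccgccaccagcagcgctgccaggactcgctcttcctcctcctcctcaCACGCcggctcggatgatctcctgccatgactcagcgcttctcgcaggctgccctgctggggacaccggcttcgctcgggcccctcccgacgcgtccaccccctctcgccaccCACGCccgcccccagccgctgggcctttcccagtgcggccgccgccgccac
GOT2: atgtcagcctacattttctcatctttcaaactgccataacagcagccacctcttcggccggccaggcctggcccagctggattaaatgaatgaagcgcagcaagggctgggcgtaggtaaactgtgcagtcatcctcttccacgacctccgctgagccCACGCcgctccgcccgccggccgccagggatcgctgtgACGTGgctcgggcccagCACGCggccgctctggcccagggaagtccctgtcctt
The matches of ME1 begin 164 and 51 bases before the start, and those of GOT2 begin 92, 54 and 37 bases before.

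**Figure D5:**
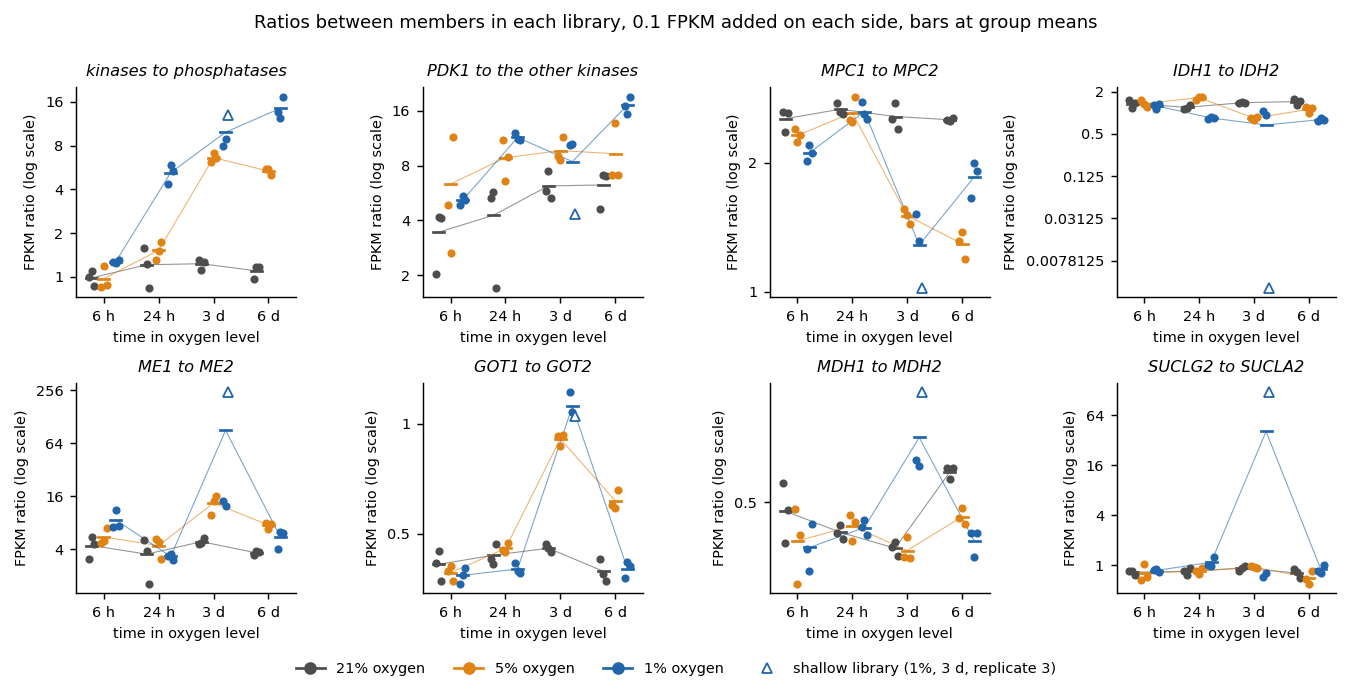
Ratios between members in each library on log axes, with 0.1 FPKM added on each side and bars at group means joined by lines (shallow library included and drawn as a triangle). The ratio of kinases to phosphatases climbs from 1.24 to 1.31 at 6 h to 12.4 to 17.4 at 6 d in 1% oxygen, and the shallow library lies far from its group in the panels of IDH1, ME1 and SUCLG2.

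Of the 2 ratios not yet given, that of MDH1 to MDH2 had mean log2 differences of 0.01 in 1% oxygen (exact permutation test, adjusted p 0.896) and -0.08 in 5% (exact permutation test, adjusted p 0.0757). That of PC to PDHA1 had -0.04 and 0.15 (exact permutation tests, adjusted p 0.896 and 0.191).

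The low levels were also set against each other. Averaged over time, 4 of the 32 genes differed between 1% and 5% oxygen, where 4.41% of all genes tested did. PDK1 was higher in 1% (log2 0.89, 0.68 to 1.09, adjusted p 1.19e-06), and PC (-0.27, adjusted p 0.0425), OGDH (-0.35, adjusted p 0.0169) and GOT1 (-0.20, adjusted p 0.00775) were lower. Without the shallow library 7 genes passed (background 14.2%). Under TPM rescaling 2 did (background 2.37%), PDK1 and OGDH, and PC also did not pass with quantile normalization. For MPC1 the difference was 0.04, with an interval of -0.10 to 0.17, and for FH it was 0.01 (-0.07 to 0.10).

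At single times the order of 1% and 5% oxygen changed, in comparisons added after the data were seen. At 6 h, 0 of the 32 genes passed (limma, background 0.0471%), and 0 did without the shallow library (background 1.26%). At an unadjusted p under 0.05, 5 of the 32 did at 6 h (background 5.34%), and TPM rescaling and quantile normalization gave 0 after adjustment. At 24 h PDK1 alone passed (log2 1.49, adjusted p 3.88e-05, background 0.744%), and 5 genes did without the shallow library (background 2.95%). At 3 d 18 passed, 17 of them lower in 1% oxygen (background 36.6%). Leaving the shallow library out gave 14 genes (background 26.9%), of which 5 were higher and 9 lower (against 1760 and 1102 of all genes), and 10 were among the 18. Under TPM rescaling, which moved the median of all genes from -0.23 to 0.01, 9 passed, 4 higher and 5 lower (background 30.7%, 22.5% higher and 8.14% lower). With quantile normalization 17 did (background 41.5%), and without replicate 3 of 5% oxygen 10 passed. A limma fit of those 2 groups alone, the shallow library among them, called 0 of the 32 (4 at an unadjusted p under 0.05, background 6.67%). GOT2 (-0.42; -0.50 without the shallow library) and MDH2 (-0.67 and -0.56) were lower both ways, and GOT2 did not pass under TPM rescaling (-0.10, adjusted p 0.578). At 6 d 7 passed (background 8.61%). MPC1 (0.54), DLD (0.30), PDK1 (1.27), CS (0.52) and IDH2 (0.57) were higher in 1% than in 5% oxygen, and ME1 (-0.77) and GOT1 (-0.47) were lower. Of these, DLD, CS and IDH2 did not pass under TPM rescaling, which moved the median of all genes from 0.03 to -0.11. Leaving that library out, 13 passed at 6 d (background 27.6%), and 4, 3 and 3 did without replicate 1 or 3 of 5% oxygen or replicate 3 of 1%.

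The course of the control culture gives the base that these differences stand on. Over the 4 times in 21% oxygen, 7 of the 32 genes varied (moderated F test, background 19.6%). They were PDP2, CS, IDH2, SUCLG1, MDH2, ME1 and GOT1, with adjusted p between 0.0051 (ME1) and 0.0492 (SUCLG1). IDH2 stood at 30.4 ± 3.77 FPKM (SD, n = 3) at 6 h and 50.7 ± 1.77 at 3 d, and PDP2 at 3.03 ± 0.254 at 24 h and 5.22 ± 0.317 at 6 d. With the shallow library left out, 19 genes varied (background 48.6%), among them IDH1. Leaving out replicate 3 of 21% oxygen at 24 h gave 4 genes, and leaving out replicate 2 or 3 at 6 d gave 4 and 3.

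The size of the difference from 21% oxygen varied with time for 21 of the 32 genes in 1% oxygen (background 40.3%) and for 5 in 5% (background 14.5%). Without the shallow library these counts were 27 (63.3%) and 21 (41.9%). In 1% oxygen GOT2, FH, MDH2 and IDH3B stood nearer to 21% at 6 d than at 3 d. So did the median of all genes tested, at -0.32 and then -0.03, and the share that passed went from 53.2% to 10.9%. Without the shallow library that median was -0.01 at 3 d, and the shares were 53.7% and 29.8%. The part of the passage at 3 d was not tested. GOT2 went from a difference of -1.21 to -0.39, MDH2 from -0.99 to 0.04, and IDH3B from -1.28 to -0.12. PDK1 went the other way, from 2.50 to 3.20. These differences at 3 d include the shallow library. Without it the mean of IDH3B in 1% oxygen at 3 d was 89.5 FPKM, against 75.4 with it and 176 in 21%. The genes named here are those with the smallest adjusted p for variation with time, so their courses describe it and add no support.

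The remaining genes of the same pathways were read in 6 further lists, beside the 31.4% of all genes that passed in 1% oxygen and the 24.2% in 5%. Under TPM rescaling those shares were 25.7% in 1% oxygen (18.6% higher, 7.07% lower) and 17.7% in 5% (12.9% higher, 4.81% lower). Of 8 other TCA cycle and dehydrogenase genes tested, 3 fell in 1% oxygen averaged over time and 0 rose. They were subunits of succinate dehydrogenase, SDHB (-0.50, adjusted p 0.000168), SDHC (-0.23, adjusted p 0.00799) and SDHD (-0.54, adjusted p 0.0443; -0.28 without the shallow library). Under TPM rescaling SDHB alone passed in either level. In 5% oxygen 2 fell (SDHB -0.37, adjusted p 0.00447, and SDHC -0.18, adjusted p 0.0396). Of 11 genes of glutamine and alanine metabolism tested, 2 rose and 4 fell in 1%, while TPM rescaling gave 3 higher and 1 lower, and 4 higher and 0 lower in 5%. SLC38A2, an amino acid transporter of the cell surface, rose in 1% (0.43, adjusted p 2.73e-08) and in 5% oxygen (0.59, adjusted p 1.18e-10). GLUL, which makes glutamine, rose in 1% (0.14, adjusted p 0.00053), and ASNS, which makes asparagine, fell (-0.22, adjusted p 5.78e-05; -0.06, not passing, under TPM rescaling).

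Of 12 mitochondrial metabolite carriers tested, 6 fell in 1% oxygen and 6 in 5%, and 0 rose in either, though TPM rescaling gave 2 higher and 2 lower in 1% and 0 higher and 1 lower in 5%. SLC25A11, which exchanges alpha-ketoglutarate for malate, fell by 0.43 and 0.37 (adjusted p 2.56e-05 and 0.000199). The channel VDAC1 of the outer membrane fell by 0.23 and 0.31 (adjusted p 3.17e-05 and 4.32e-07). Under TPM rescaling neither call of VDAC1 passed, nor did that of SLC25A11 in 5% oxygen. Of 8 genes of lipoic acid synthesis and transfer, the cofactor of DLAT and DLST, 2 rose and 2 fell in 1%. GLRX5, which carries iron-sulfur clusters, rose (0.51, adjusted p 0.000455), and BOLA3, which also serves in cluster delivery, fell (-0.52, adjusted p 0.00328).

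Of 6 genes tested that take citrate and acetyl-CoA onward, 3 rose and 1 fell in 1% oxygen. ACSS2, which makes acetyl-CoA from acetate, rose in 1% (0.78, adjusted p 0.000327) and in 5% oxygen (1.24, adjusted p 7.53e-07), and ACLY, which splits citrate, rose by 0.20 and 0.24 (adjusted p 0.000358 and 6.84e-05). CPT1A, which admits fatty acids to mitochondria, fell in 1% (-0.59, adjusted p 0.00294) and in 5% (-0.47, adjusted p 0.0186; -0.36, not passing, under TPM rescaling). Of 9 genes of 2-hydroxyglutarate and branched-chain amino acid breakdown, 2 rose and 2 fell in 1% oxygen and 0 passed in 5%. Without the shallow library 4 passed in 5%, where 48.4% of all genes did. All 10 genes of a short list of known hypoxia-induced genes rose in both levels.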

How the data were processed

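RNA from K562 cells was sequenced after polyA selection and Smart-seq2 library preparation with paired reads, per the labels' protocols. The deposited values are FPKM per gene that the authors made with TopHat, Cufflinks and Cuffnorm, per the submitters' processing notes. The sources used here do not give the genome build, the annotation or tool versions. The files hold no counts, so depth is unknown and no counting interval is given. The separate table of 41726 transcripts was not analysed here.

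Libraries were grouped by the oxygen level and time in their labels. Values entered as log2(FPKM + 1) into 1 limma fit (limma 3.58.1, R 4.3.3) with 12 group means, 24 residual degrees of freedom and a prior variance that followed the mean level, over 10625 genes with a mean of at least 1 FPKM. Adjusted p-values are Benjamini-Hochberg over those genes, from moderated two-sided tests, with 95% intervals. Ratios were taken within libraries after adding 0.1 FPKM and tested by an exact two-sided permutation of oxygen labels within times (Python 3.11.15, numpy 2.4.6, pandas 2.3.3, figures with matplotlib 3.10.9). Scripts were tested on simulated data.

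The members and lists were chosen with earlier results of these data known. All 34 genes are named. Values by library are given for the 4 kinases, the 8 genes with the largest average difference in 1% oxygen, the 4 with the largest in 5%, and the 4 with the smallest adjusted p for variation with time in 1%. Other genes come from fixed lists, at most 4 a list by smallest adjusted p in 1% oxygen. Alternatives were another pseudocount (0.1), no filter, the compared groups alone, a replicate block, TPM rescaling, quantile normalization and leaving out each library. Comparisons of 1% with 5% oxygen at single times and the counts without PDK3 were chosen after seeing the data.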

Additional observations from a re-analysis of the deposited data

Results flagged for a closer look

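The size of the difference from 21% oxygen varied between the 4 times for 21 genes in 1% oxygen and 5 in 5% (limma moderated F test of the oxygen-by-time terms, adjusted over all genes tested). In 1% oxygen the adjusted p-values of the carriers and dehydrogenase subunits were 0.000889 for MPC1, 0.00848 for MPC2, 0.0108 for PDHA1, 0.00116 for DLAT and 0.00268 for DLD. Those of the kinases were 8.52e-08 for PDK1 and 0.00211 for PDK3. In the first steps of the cycle they were 0.000933 for CS, 0.038 for IDH3A, 4.02e-05 for IDH3B, 0.00531 for IDH3G and 0.0337 for OGDH. In the later steps they were 0.000113 for SUCLG1, 0.000597 for SUCLG2, 4.11e-07 for FH, 0.0111 for MDH1 and 4.72e-07 for MDH2. Of the refilling enzymes, PC had 0.00152, ME1 0.0247, GOT1 0.0032 and GOT2 3.75e-09.

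In 5% oxygen the adjusted p-values from the same F test were 0.0307 for MPC2, 1.29e-05 for PDK1, 0.00399 for PDK3, 0.0127 for FH and 1.67e-05 for GOT2.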

How the results depend on the processing

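Of 3860 comparisons of a gene or ratio with an alternative setting, 3819 kept their direction, and 276 of 325 counts of genes stayed within 1.5 times. Among 3410 for single genes, 35 reversed, 373 lost their call and 29 gained one. Outside the averages against 21% oxygen, only genes that passed in the main fit were compared. A gained call could therefore be counted only for those averages, and the 29 leave out gains at single times. The cause of these changes was not tested. Beside each count, the share of all genes tested is in parentheses. TPM rescaling gave 14 genes (25.7%) in 1% oxygen on average, 6 (22.3%) at 24 h, 6 (9.74%) in 5% at 6 d, 2 (2.37%) and 9 (30.7%) for 1% against 5% on average and at 3 d, and 17 (22.9%) varying with time in 5%. Quantile normalization gave 2 (7.81%) in 1% and 0 (1.85%) in 5% at 24 h, 10 (15.3%) varying with time in 5% and 4 (16.5%) over time in 21%. Fits of the compared groups alone gave 7 (12.9%), 8 (7.7%) and 19 (29.5%) in 1% oxygen at 24 h, 3 d and 6 d, and 0 (0.00941%) and 24 (49.2%) in 5% at 24 h and 6 d. For 1% against 5% they gave 2 (2.71%) on average and 3 (1.06%), 0 (0%) and 13 (26.3%) at 24 h, 3 d and 6 d, with 19 (38.2%) varying with time in 5% and 13 (38.9%) over time in 21%.

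Leaving out 1 library at a time gave these ranges of counts, for which the share of all genes was taken only without the shallow library. In 1% oxygen they were 20 to 26 on average, 2 to 20 at 24 h, 21 to 25 at 3 d, 5 to 19 at 6 d and 18 to 27 for variation with time. In 5% they were 16 to 25, 0 to 16, 11 to 23, 8 to 22 and 4 to 21. For 1% against 5% they were 3 to 7 on average, 1 to 5, 10 to 19 and 3 to 13, and 3 to 19 genes varied over time in 21%. The mean log2 difference of the ratio ran from -0.0156 to 0.0264 for MDH1 to MDH2 in 1% and -0.0978 to -0.0564 in 5%. It ran from -0.192 to 0.0559 for PC to PDHA1 in 1% (0.00708 with 1 FPKM added). For IDH1 to IDH2 it ran from -1.53 to -0.481 in 1%, for SUCLG2 to SUCLA2 from 0.073 to 0.996, for GOT1 to GOT2 from 0.254 to 0.288 in 1%, and for ME1 to ME2 from 0.759 to 1.3.

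Averages in 1% oxygen that turned above 0 were MPC2 (0.0213 with TPM, 0.0115 with quantile normalization), PDHB (0.0791, 0.0647) and CS (0.0655, 0.0763). PDP1 did so with TPM (0.0241). Leaving out 1 library moved PDP1 between -0.0738 and 0.062 and DLST between -0.441 and 0.0199, both highest without the shallow library. At 24 h in 1% these were FH (0.132, 0.0644), MDH1 (0.127, 0.0464), MDH2 (0.106, 0.157) and GOT2 (0.185, 0.0321), and with TPM alone DLD (0.108) and GOT1 (0.0612). In 5% on average they were MPC2 (0.00553, 0.0143) and IDH1 (0.0617, 0.014), and with TPM alone PDP1 (0.0125), PDP2 (0.0881), PDPR (0.0159) and PC (0.00959). At 24 h in 5% they were FH (0.147, 0.0603), MDH1 (0.116, 0.0474) and MDH2 (0.0893, 0.145). CS in 1% against 5% at 3 d was 0.0612 with TPM.

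Same-numbered libraries did not deviate together, since 2 of 36 pairs had a correlation above 0.1 (range -0.264 to 0.146). With the replicate number as a block, 21 genes passed in 1% oxygen on average (background 30.9%), and each of the 18 counts stayed within 1.5 times its value.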
